A study of Mus musculus with 8 samples.

Results

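The cells described here were primary mouse aortic smooth muscle cells that had received a scrambled control oligo, the baseline of a study of a small RNA mimetic in the vessel wall. They were chosen by label alone: the 4 arrays whose title and treatment name the scrambled control, of 8 arrays in the series. Arrays 1A and 1B were repeat arrays of sample 1, so that the 4 arrays stood for 3 samples, of 6 in all. The cells grew out of pieces of mouse aorta from which the adventitia had been cleaned, were kept in medium with charcoal-treated serum, were transfected with the oligo at 5 nM using RNAiMAX, and gave their RNA at 48 h. Several aortas were used, and the strain, age and sex of the animals are not given in the sources used here. Nothing states that the 3 samples came from separate cultures or animals, so the spread between them may be technical. No array of untransfected cells was among those used here, so "baseline" means cells that had been through a transfection.

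Smooth muscle cells of the aorta contract by sliding actin over myosin, and in culture they are known to lower many contractile genes, divide, and make more matrix. The genes of the contractile state are switched on by serum response factor (Srf), which binds a DNA element called the CArG box, and by its partner myocardin (Myocd). Smooth muscle alpha-actin (Acta2) is among the earliest genes of the lineage to appear and is also made by activated fibroblasts, whereas smooth muscle myosin heavy chain (Myh11) marks the mature contractile cell.

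Each array reported 25697 probes, which carried 18138 gene symbols. A probe was called detected on an array when its deposited detection p-value was under 0.01, that is, when it was brighter than nearly all of the control beads that match no mouse sequence. Between 10290 and 10508 probes were detected on each array. The probe's lowest detected intensity lay between 110.7 and 118.3, and the array medians lay between 102.5 and 109.2, just under that limit. Signals are given as log2 of the quantile-normalized intensity, each gene at its brightest probe, as mean ± SD over the 3 samples (n = 3 throughout). The order of the genes by signal is an order of probes: probes bind with different strength, and the order is not one of mRNA amounts.

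Of the 18138 genes, 7417 (40.9%) were detected on all 4 arrays, 946 (5.22%) on some of them and 9775 (53.9%) on none. The genes detected on all arrays spread from 6.84 to 14.13 with a median of 8.19, and the genes detected on none lay between 6.50 and 6.81. An undetected probe did not show that a gene was silent. Among 4949 genes with several probes, 2805 had a probe detected on all 4 arrays, and 1365 of these (48.7%) had another probe detected on no array. Among 185 genes of ribosomes, proteasome, respiratory chain and the reference list, groups that dividing cells use, 26 (14.1%) were detected on no array. The families were taken by gene symbol, and whether these cells use every member was not tested.

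The genes that defined the cell type gave a split picture. Of the 5 marker genes, 4 had a probe, and all 4 were detected on every array. Acta2 read 13.19 on array 1A, 13.14 on 1B, 13.20 on sample 2 and 13.14 on sample 3, a mean of 13.17 ± 0.033, and stood at rank 48 of all genes by signal. Its 3 other probes were also detected on all arrays, at 10.56, 9.72 and 9.21. Tropomyosin 1 (Tpm1), which lies along the actin filament, read 11.48, 11.56, 11.67 and 11.60 in the same order of arrays. Tropomyosin 2 (Tpm2) read 9.18, 9.09, 9.08 and 9.09 at its brightest probe, while its 2 other probes were detected on no array. Caldesmon (Cald1), which holds actin and myosin apart at rest, was near the limit at 7.11, 7.07, 6.96 and 7.18, and its second probe was detected on 2 of 4 arrays. Myosin light chain 9 (Myl9) had no probe under that symbol or a synonym in the table used here.

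Over the longer list of smooth muscle genes, 13 of 19 with a probe (68.4%) were detected on all arrays, against 40.9% of all genes. Those detected were largely parts of the actin cytoskeleton that other adherent cells use too. They included the myosin light chain Myl6 (11.72 ± 0.11), tropomyosin 4 (Tpm4, 11.40 ± 0.052), vinculin (Vcl, 10.22 ± 0.053), the LIM protein Csrp1 (10.06 ± 0.096) and filamin A (Flna, 8.81 ± 0.063). Smoothelin (Smtn), a marker of contractile smooth muscle, was detected on all arrays at 8.74 ± 0.11, desmin (Des) at 7.29 ± 0.089 and myosin light chain kinase (Mylk) at 7.25 ± 0.074. Another Smtn probe (6.75) was detected on 1 array only. Leiomodin 1 (Lmod1, 6.79) was detected on 1 array. Transgelin (Tagln, 6.73), gamma smooth muscle actin (Actg2, 6.72), calponin (Cnn1, 6.66), Myh11 (6.58) and synaptopodin 2 (Synpo2, 6.51) were detected on no array, each read by a single probe. Tagln, Cnn1 and Myh11 are defining markers of the contractile cell.

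**Figure D1:**
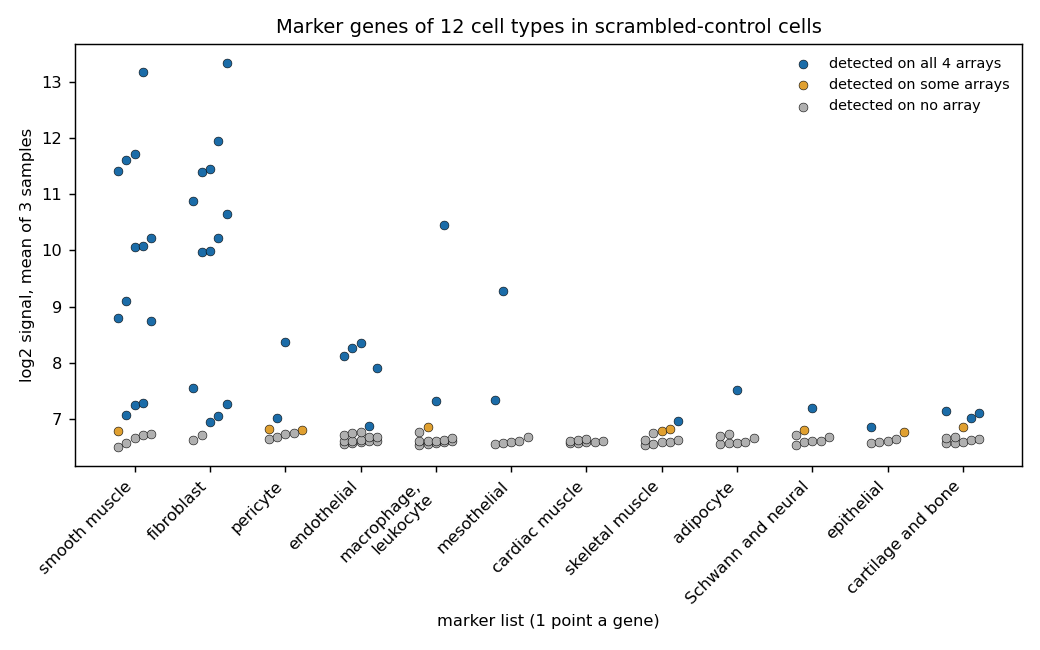
Mean log2 signal over the 3 samples (vertical axis) of the genes in 12 marker lists (horizontal axis), 1 point a gene, coloured by the number of control arrays on which the gene was detected. Smooth muscle and fibroblast genes reach above 13, and no cardiac muscle gene was detected on any array.

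Of the regulators of this programme, 9 of 18 with a probe (50.0%) were detected on all arrays, against 40.9% of all genes. Gata6, the GATA factor of vascular smooth muscle, read 11.36, 11.22, 11.41 and 11.43 on the 4 arrays, and the LIM protein Csrp2 read 11.14 ± 0.052 over the samples. Srf was detected at 8.47 ± 0.040 at its brightest probe, while its second probe (6.67) was detected on no array. The mesenchymal factors Prrx1 (8.30) and Twist1 (7.76) were detected as well. So were the Krüppel-like factors Klf4 (7.62) and Klf5 (7.03), known for their part in the switch of these cells away from the contractile state. Myocd was detected on no array by any of its 3 probes, the highest of which read 6.68. Its relatives Mkl1 (6.72), detected on 1 array, and Mkl2 (6.66), on none, were also at the limit. Tbx18 (6.69) and Tcf21 (6.63), factors of the cells that give rise to mural cells and fibroblasts, were detected on no array.

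The CArG box was looked for in RefSeq promoter windows of build GRCm38.p6, each running from 250 bases before a gene's start to 50 bases after it. The search took CC, a run of A and T, and GG, a pattern that reads the same way on both strands. It was in 535 of 32851 windows (1.63%) and in 488 of 27025 genes (1.81%). Of 16 smooth muscle list genes with a window, 2 held it, Myl6 and Vcl, both detected on all arrays, and so did Myl9, the marker gene without a probe. These boxes are shown, in capitals, as the element through which Srf acts on genes of this kind.
Myl6: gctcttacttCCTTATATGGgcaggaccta
Vcl: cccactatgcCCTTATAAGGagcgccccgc
Myl9: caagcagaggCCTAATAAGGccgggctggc
The Myl6 stretch is at chr10:128493040-128493069 on the minus strand, with its box starting 50 bases before the gene's start. The Vcl stretch is at chr14:20929161-20929190 on the plus strand, with its box 227 bases before the start, and the Myl9 stretch is at chr2:156775293-156775322 on the plus strand, 161 bases before it. A match of letters is not a measured binding site, and boxes outside these windows or with other letters were not counted.

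Markers of other cells were checked because 1 label field of the arrays names aortic endothelial cells, whereas the source and cell type fields name smooth muscle. Of 18 endothelial genes, 5 (27.8%) were detected on all arrays and 13 on none, against 40.9% and 53.9% of all genes. The 5 were the VEGF receptor Flt1 (8.35 ± 0.070), Egfl7 (8.26 ± 0.073), the TGF-beta co-receptor endoglin (Eng, 8.13 ± 0.082), Plvap (7.92 ± 0.079) and von Willebrand factor (Vwf, 6.89 ± 0.021). Flt1 had a second probe detected on no array. Of the 2 other probes of Egfl7, 1 was detected on 2 arrays and the other on none. The defining endothelial genes Pecam1 (6.62), Cdh5 (6.57), Kdr (6.77), Tek (6.75) and Tie1 (6.61) were detected on no array. A low level of such genes in a bulk culture can come from few cells with much RNA or many cells with little, and these cannot be told apart here.

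Fibroblast genes were detected as widely as any list of cell markers, with 13 of 15 (86.7%) on all arrays. The share over all genes was 40.9%. Decorin (Dcn), a small proteoglycan that binds collagen, read 13.39, 13.33, 13.35 and 13.27 on the 4 arrays. Vimentin (Vim, 11.94), the collagen chain Col1a1 (11.45), lumican (Lum, 11.40), endosialin (Cd248, 10.87), Ly6a (10.22), the PDGF receptor Pdgfra (9.98) and Thy1 (9.96) followed. Cd34 (6.72) and dermatopontin (Dpt, 6.63), which mark adventitial fibroblasts, were detected on no array, and Pi16 (6.95), another such gene, on all. Many of these genes are also made by cultured smooth muscle cells, and a share of fibroblasts in the cultures was not tested.

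Of 14 macrophage and leukocyte genes, 2 (14.3%) were detected on all arrays and 11 on none, against 40.9% and 53.9% of all genes. Cd14, the co-receptor for endotoxin, was bright at 10.48, 10.49, 10.46 and 10.41, and lysozyme 2 (Lyz2) was dim at 7.32 ± 0.013. The leukocyte genes Ptprc (6.60), Tyrobp (6.60), Laptm5 (6.56), Itgam (6.54) and Emr1 (6.61) were all detected on no array. Among 8 pericyte genes, Pdgfrb (8.36) and Notch3 (7.03) were detected on all arrays, Cspg4 (6.83) on 2 and Rgs5 (6.80) on 1. Mcam (6.75), Kcnj8 (6.73), Abcc9 (6.68) and Higd1b (6.65) were detected on none. Of 7 mesothelial genes, Upk3b read 9.28 ± 0.039 and Krt19 read 7.33 ± 0.10, while mesothelin (Msln, 6.56), Krt8 (6.68) and Krt18 (6.60) were detected on no array. All 8 cardiac muscle genes were detected on no array. In each of the adipocyte, neural, epithelial and skeletal muscle lists 1 gene was detected on all arrays, none above the 7.52 of Pparg, and Sox9 (7.14), Bglap2 (7.11) and Bglap1 (7.02) were so detected among 11 cartilage and bone genes.

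Many of the brightest probes were those of ribosomal proteins, which made up 29 of the 100 brightest genes. Of the 30 brightest genes, 15 were cytosolic ribosomal proteins, led by Rps2 (14.13 ± 0.034) and Rplp1 (14.13 ± 0.024), and 5 carried predicted gene symbols. Several of these predicted genes are described in the table as similar to ribosomal proteins or ubiquitin, and such copies share sequence with their parent genes, so their signals cannot be given to 1 gene. The elongation factors Eef1a1 (14.11) and Eef1g (13.63), ubiquitin B (Ubb, 13.99), ferritin heavy chain (Fth1, 13.91), beta-tubulin (Tubb5, 13.66), the ATP synthase subunit Atp5b (13.64) and Itm2b (13.50) were among the 30. The remaining 3 were biglycan (Bgn, 13.72 ± 0.017), a proteoglycan of the vessel wall, Serpinf1 (13.66 ± 0.024), which encodes the secreted anti-angiogenic factor PEDF, and zyxin (Zyx, 13.62 ± 0.058), a protein of focal adhesions. Bgn read 13.72, 13.69, 13.72 and 13.74 on the 4 arrays. The SD over samples was 0.030 at the median of the 30 and at most 0.075.

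Of 35 matrix glycoproteins and proteoglycans, 23 (65.7%, against 40.9% of all genes) were detected on all arrays and 12 on none. Beside Bgn and Dcn, the brightest were Sparc (12.82 ± 0.087), matrix Gla protein (Mgp, 12.42 ± 0.038), an inhibitor of vascular calcification, and the collagen and elastin crosslinkers lysyl oxidase (Lox, 12.37 ± 0.039) and Loxl1 (11.61 ± 0.037). Efemp2 (11.24), needed for elastic fibre assembly, perlecan (Hspg2, 10.93), fibulin 2 (Fbln2, 10.77) and the nidogens Nid2 (10.67) and Nid1 (9.56) were detected, and fibrillin 1 (Fbn1) read 8.34 ± 0.15. Elastin itself (Eln, 6.79), its partner Fbln5 (6.56), thrombospondin 1 (Thbs1, 6.75), osteopontin (Spp1, 6.66), versican (Vcan, 6.62) and periostin (Postn, 6.57) were detected on no array.

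Of 36 collagen chains, 14 (38.9%) were detected on all arrays, close to the 40.9% of all genes, and 20 on none. They were the fibrillar chains Col1a1, Col5a1 (11.35), Col1a2 (8.98), Col3a1 (8.28) and Col5a2 (7.09), the beaded filament chains Col6a1 (12.88 ± 0.065) and Col6a2 (10.35), the basement membrane chains Col4a1 (10.39), Col4a2 (10.35), Col4a5 (10.29), Col4a6 (8.99) and Col18a1 (9.21), and Col16a1 (10.34) and Col7a1 (7.18). The cartilage chains Col2a1, Col9a1, Col9a2, Col9a3, Col10a1, Col11a1 and Col11a2 were all detected on no array. Of 26 matrix metalloproteinases and their inhibitors, 11 (42.3%) were detected on all arrays, again close to the 40.9% of all genes. The membrane-bound collagenase Mmp14 (13.37 ± 0.051), the gelatinase it activates, Mmp2 (11.90 ± 0.030), and the inhibitors Timp2 (11.68) and Timp1 (11.53) were the brightest, followed by stromelysin Mmp3 (10.54) and the collagenase Mmp13 (10.18). The gelatinase Mmp9 was detected on no array. Of 28 genes with integrin symbols 12 (42.9%) were detected on all arrays, also close to that share. Of the 24 that encode subunits 9 were so detected. They were led by Itgb5 (8.72), the collagen receptor chain Itga11 (8.54), Itgb1 (7.63) and the fibronectin receptor chain Itga5 (7.57).

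**Figure D2:**
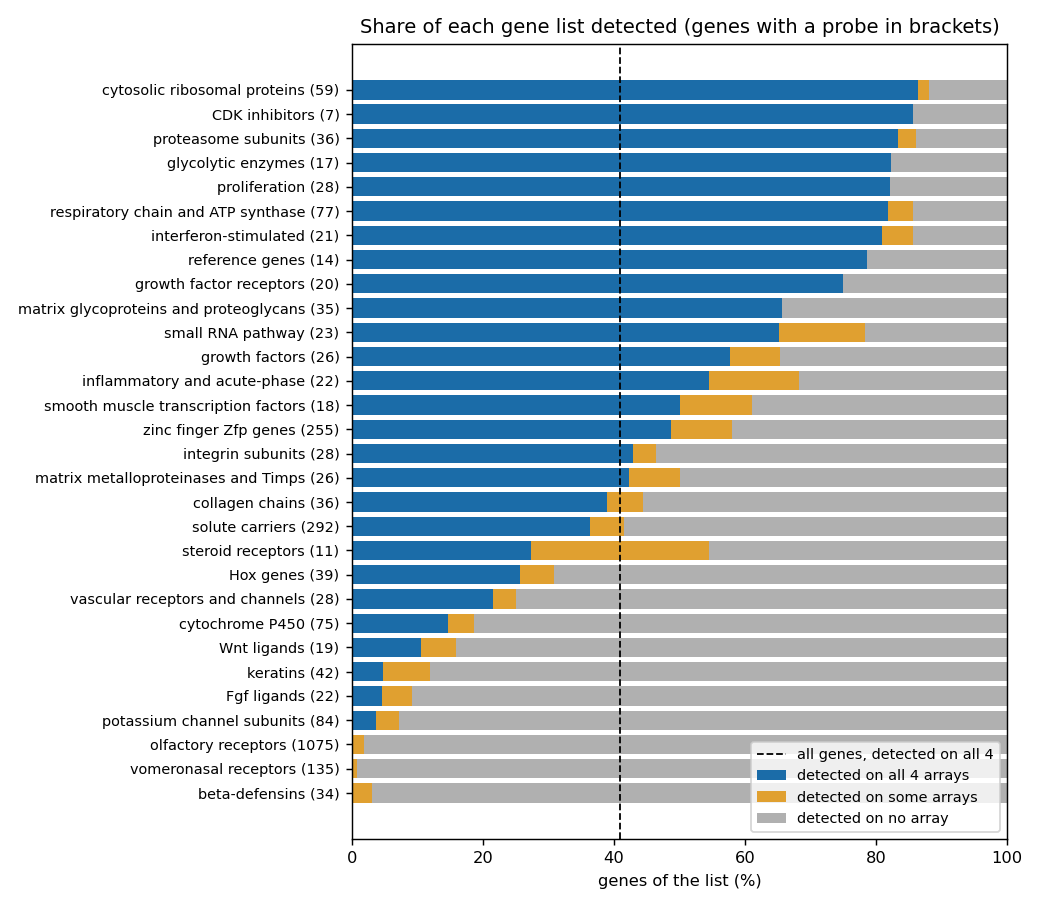
Share of the genes in each list or family (horizontal axis, percent of genes with a probe) that were detected on all, some or none of the 4 control arrays. The dashed line is the 40.9% of all 18138 genes detected on all arrays. Ribosomal proteins (86.4%) lie farthest above it, and olfactory receptors (0.186%), vomeronasal receptors and beta-defensins lie at the bottom.

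Receptors of the contractile vessel were detected less often than genes in all. Of 28 vasoactive receptors and channels, 6 (21.4%) were detected on all arrays, against 40.9% of all genes. On no array were 21 detected, where 53.9% of all genes were on none. The thrombin receptor F2r was bright at 11.74 ± 0.065 and the calcium release channel Itpr1 read 10.02 ± 0.054. The nitric oxide receptor chain Gucy1a3 (7.95), the sphingosine phosphate receptor Edg5 (7.36) and the cGMP kinase Prkg1 (7.28 ± 0.14) were dimmer. Other probes of Gucy1a3 read 6.79, detected on 1 array, and 6.77, on none. Gucy1b3 (6.63), the other nitric oxide receptor chain on the list, was detected on no array. The angiotensin receptors Agtr1a (6.59) and Agtr1b (6.62), the endothelin receptors Ednra (6.77) and Ednrb (6.62), all 3 alpha-1 adrenergic receptors on the list, the calcium channel Cacna1c (6.68) and the potassium channel subunits Kcnma1 (6.60) and Kcnmb1 (6.60) were detected on no array. Of 84 potassium channel symbols 3 (3.57%) were detected on all arrays, the brightest being Kcnab2 at 7.22.

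Growth factor receptors were detected widely, 15 of 20 (75.0%) on all arrays, against 40.9% of all genes. Axl, the receptor of the vitamin K-dependent ligand Gas6, read 12.92, 12.86, 12.83 and 12.67, and Tgfbr2 read 11.29 ± 0.079. The receptors Tgfbr3 (9.20), Egfr (9.19), the collagen receptor Ddr1 (9.06), Pdgfrb (8.36), Bmpr1a (8.07 ± 0.27), Fgfr1 (7.27) and Igf1r (7.24) were also detected, whereas Met (6.73), Insr (6.68) and Bmpr2 (6.63) were detected on no array. Of 26 growth factors, 15 (57.7%) were detected on all arrays, against that same 40.9%. Vegfb (10.45 ± 0.0084), Bmp4 (10.36 ± 0.059), Pdgfa (9.35 ± 0.14), Vegfa (9.31 ± 0.11) and the matricellular factor Ctgf (8.95 ± 0.085) were at the top. Pdgfb (6.67), Fgf2 (6.63) and Hgf (6.61) were detected on no array. Fgf7 (8.31) was 1 of 22 Fgf ligands detected on all arrays, and Wnt5a (8.26) and Wnt5b (7.09) were 2 of 19 Wnt ligands.

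The cells were grown in serum stripped of steroids, and their steroid receptors were read at that state. Of 11 such genes and cofactors, 3 (27.3%) were detected on all arrays, against 40.9% of all genes. They were the orphan receptor Esrra (9.11 ± 0.066), the corepressor Ncor1 (8.93 ± 0.050) and the vitamin D receptor Vdr (7.04 ± 0.060). The membrane estrogen receptor Gper (6.88) was detected on 3 of 4 arrays. The estrogen receptors Esr1 (6.76) and Esr2 (6.60), the progesterone receptor Pgr (6.59) and the glucocorticoid receptor Nr3c1 (6.69) were detected on no array. The glucocorticoid receptor is known from nearly every cell type, and an undetected probe sets no level for a gene, as above.

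Of the machinery that makes and uses small RNAs, 15 of 23 genes (65.2%) were detected on all arrays, against 40.9% of all genes. In the nucleus the Drosha gene, listed as Rnasen, read 8.49 ± 0.060 and its partner Dgcr8 read 7.24 ± 0.059. The exporter Xpo5 read 7.34 ± 0.056, Dicer1 read 7.33 ± 0.11 and its partners Tarbp2 and Prkra read 7.38 and 8.77. The helicases Ddx17 (12.61 ± 0.0046) and Ddx5 (8.28) and the silencing scaffolds Tnrc6c (9.43) and Tnrc6a (9.11) were detected as well. The other probes of Ddx17 read 6.84, detected on 2 arrays, and 6.74 and 6.55, on none. Another Ddx5 probe read 6.56 and was detected on none. Of the 4 Argonaute genes, which hold small RNAs on their targets, Ago2, listed as Eif2c2, was detected on 3 of 4 arrays at 6.83 ± 0.071, and Eif2c1 (6.63), Eif2c3 (6.78) and Eif2c4 (6.66) were detected on none. Tmem49, the gene now called Vmp1 that lies next to the miR-21 precursor, read 10.86, 11.10, 10.65 and 11.04 on the 4 arrays at the brightest of its 5 probes. Its repeat arrays of sample 1 lay 0.24 apart, and the 3 samples spread over an SD of 0.21.

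Genes of the dividing cell were detected at 23 of 28 (82.1%), against 40.9% of all genes. The G1 cyclins Ccnd1 (10.75 ± 0.055), Ccnd3 (10.17 ± 0.037) and Ccnd2 (9.47 ± 0.067), the replication helicase subunit Mcm4 (9.93 ± 0.029) and the mitotic genes Cdc20 (9.76 ± 0.022), Birc5 (9.48), Plk1 (9.43), Top2a (8.79), Cdc2a (8.78), Aurka (8.77) and Ccnb1 (8.34) were all detected on every array. Their brakes were detected too, 6 of 7 CDK inhibitor genes (85.7%), with Cdkn1a (p21) at 10.72 ± 0.043, Cdkn2b at 8.73 and Cdkn2a at 7.20. Pcna (6.72), Ccna2 (6.59), Ccnb2 (6.58), Ccne2 (6.70) and Bub1 (6.63) were detected on no array, although dividing cells use them. Some detected genes also had probes detected on no array: Mcm4 (6.64 and 6.64), Cdc2a (6.64 and 6.63) and Ccnd3 (6.69).

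Among 22 inflammatory and acute-phase genes, 12 (54.5%) were detected on all arrays, against 40.9% of all genes, and some were among the brightest of all. The chemokine Cxcl12, which is made by stromal cells, read 13.21, 13.15, 13.33 and 13.21. Serum amyloid A3 (Saa3), an acute-phase protein made outside the liver, read 13.16, 13.20, 13.05 and 13.37. Complement C3 read 12.80 ± 0.027 and the neutrophil chemokine Cxcl1 read 12.67 ± 0.042. The adhesion molecule Vcam1 (11.17 ± 0.13), haptoglobin (Hp, 10.06), lipocalin 2 (Lcn2, 9.44 ± 0.14) and Ccl7 (8.47) followed, while the monocyte chemokine Ccl2 read 7.05. The cytokines Il6 (6.65), Il1b (6.68) and Tnf (6.65) and the inducible enzymes Nos2 (6.66) and Ptgs2 (6.60) were detected on no array.

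Interferon-stimulated genes were detected at 17 of 21 (81.0%), against 40.9% of all genes. Ifitm3, which blocks virus entry, read 13.39 ± 0.046, and Ifit3 read 12.68 ± 0.079. Gbp2 (10.83), Usp18 (10.71), viperin (Rsad2, 10.54), Oasl2 (9.88) and Ifit2 (9.61) followed, whereas Ifit1 (6.58), Oas1a (6.63) and Ifih1 (6.64) were detected on no array. Transfected RNA is known to be able to induce such genes, and without an untransfected array the part of the transfection in these levels was not tested.

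Most of these genes stood highest in the same sample. Of the 17 detected genes, 11 were highest in sample 2 and 12 were lowest in sample 3. Of all 7417 genes detected on all arrays, 2604 were highest in sample 2 and 2727 lowest in sample 3. Their median deviation from the gene's mean over the 3 samples was 0.02 in sample 1, 0.08 in sample 2 and -0.08 in sample 3, where the median over all genes detected on all arrays lay between -0.0031 and 0.0019. Ifit2 read 9.61 and 9.54 on the arrays of sample 1, 9.81 in sample 2 and 9.44 in sample 3. Gbp2 read 10.83, 10.87, 10.97 and 10.66, and Rsad2 read 10.59, 10.50, 10.70 and 10.39 in the same order. Outside these 17 genes, the chemokine Cxcl10, which interferon also induces, read 7.81, 7.63, 8.12 and 7.54. Its own list, the inflammatory and acute-phase genes, had no such lean, with 4 of 12 detected genes highest in each sample. The chemokine Ccl5 on that list read 7.64, 7.62, 7.59 and 7.75, lowest in sample 2. Within the 17 genes, Ifitm3, Bst2 and Stat2 were lowest in sample 2. In limma's F-test 5 of the 17 genes (29.4%) had an unadjusted p under 0.05, against 9.38% of all genes detected on all arrays and 8.73% of all genes tested, and none passed after Benjamini-Hochberg adjustment, with an adjusted p of 0.456 for Ifit2.

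**Figure D3:**
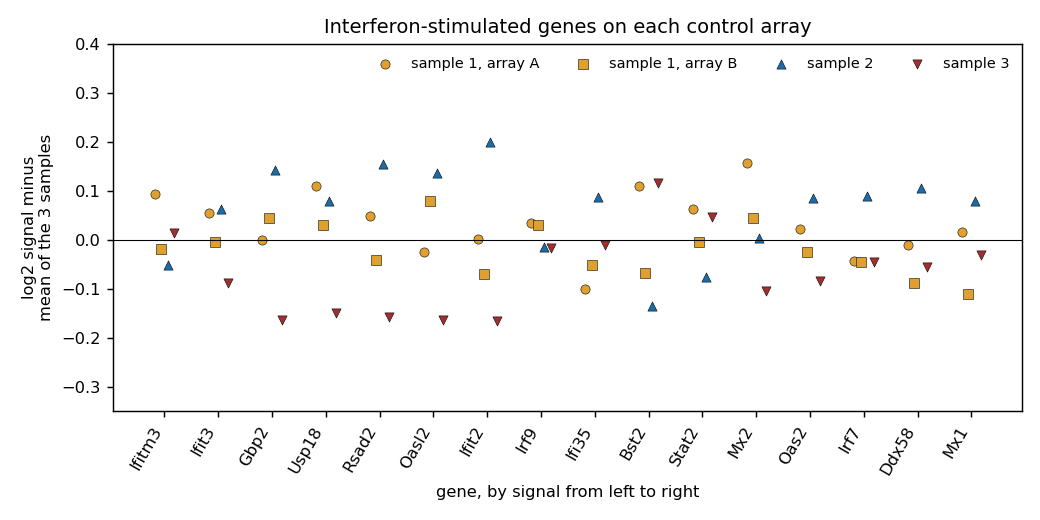
Log2 signal of 16 of the 17 interferon-stimulated genes detected on all arrays (horizontal axis, by falling signal; 1 gene is not reported here), shown for each control array as the difference from the gene's mean over the 3 samples (vertical axis). Sample 2 (triangles pointing up) lies highest for 11 of the 16 genes and sample 3 (triangles pointing down) lowest for 11, with sample 1 taken as the mean of its arrays.

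Hox genes, which mark a cell's origin along the body axis, were detected in a block. Of 39 Hox genes, 10 (25.6%) were detected on all arrays, against 40.9% of all genes. All 10 belonged to the Hoxa cluster (5 of 11) and the Hoxb cluster (5 of 10). None of 9 Hoxc genes and none of 9 Hoxd genes were so detected. Of the Hoxa and Hoxb genes of paralogue groups 2 to 7, 9 of 12 were detected on all arrays, and of those of groups 8 to 13, 1 of 7 was. Hoxa5 was the brightest at 10.78 and 10.79 on the arrays of sample 1, 10.68 in sample 2 and 10.71 in sample 3. Hoxb5 (9.14 ± 0.040), Hoxa2 (8.50), Hoxb2 (8.50), Hoxb4 (8.44 ± 0.21), Hoxa4 and Hoxb6 (7.42) followed. Hoxa13 (7.02) stood outside the block.

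**Figure D4:**
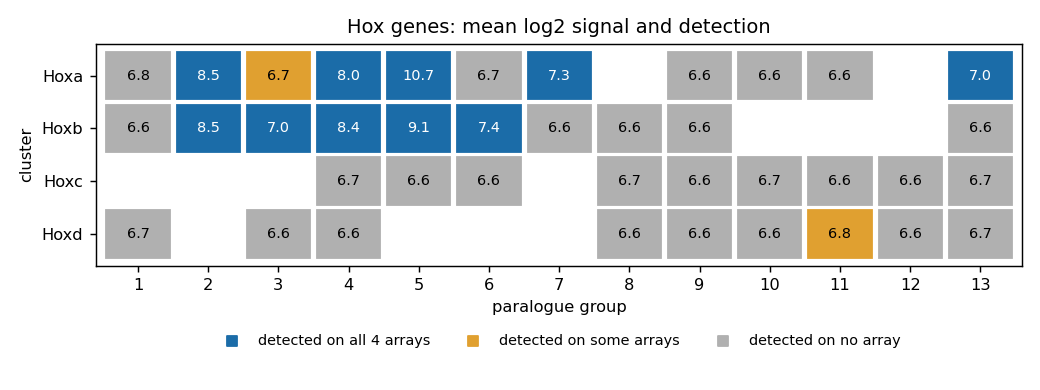
Hox genes by cluster (vertical axis) and paralogue group (horizontal axis), each box with the mean log2 signal over the 3 samples and coloured by detection, and empty where no probe was on the table. The detected genes lie in the Hoxa and Hoxb clusters between groups 2 and 7, with Hoxa13 apart.

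Families that any cell uses and families of other tissues bounded these readings. Cytosolic ribosomal proteins were detected at 51 of 59 (86.4%), proteasome subunits at 30 of 36 (83.3%), glycolytic enzymes at 14 of 17 (82.4%) and the respiratory chain and ATP synthase at 63 of 77 (81.8%). Of 14 reference genes 11 were detected on all arrays, including Gapdh (11.97 ± 0.027) and Actb (12.90 ± 0.067), while 3 were detected on none, among them Pgk1 (6.72) and Polr2a (6.61). At the other end, 2 of 1075 olfactory receptors (0.186%) were detected on all arrays and 18 on some, and no gene of 135 vomeronasal receptors or 34 beta-defensins was detected on all. The 2 olfactory receptors, Olfr724 (7.13) and Olfr378 (6.90), were both close to the detection limit. Of 42 keratins, Krt10 (7.87) and Krt19 were detected on all arrays, and of 75 cytochrome P450 genes 11 were, with Cyp1b1 at 9.41 ± 0.14. Zinc finger genes with Zfp symbols were detected at 124 of 255 (48.6%), led by the mRNA decay factor Zfp36l1 (12.28). Solute carriers were detected at 106 of 292 (36.3%), led by the mitochondrial ADP/ATP carrier Slc25a5 (11.80). Both shares lay near the 40.9% of all genes.

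The 3 samples were nearly alike. Over the 9740 probes detected on all arrays, log2 differences between the repeat arrays 1A and 1B had an SD of 0.094, and those between arrays of different samples had SDs from 0.1035 to 0.1092. The correlation across probes, which are not independent replicates, was 0.9976 for the repeat arrays and 0.9968 to 0.9971 for the other pairs. Over the 7417 genes detected on all arrays, the median SD between the samples was 0.0542, and the range between the highest and the lowest sample was under 0.2 for 6563 genes (88.5%) and over 0.5 for 11.

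**Figure D5:**
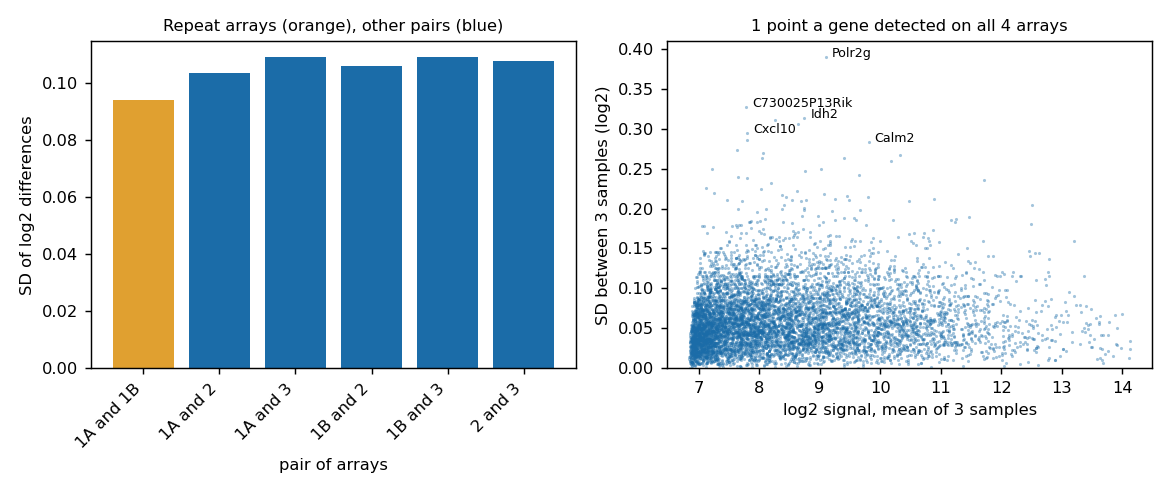
Left, the SD of log2 differences for each pair of control arrays (bars from 0), with the repeat arrays of sample 1 in orange. Right, the SD between the 3 samples (vertical axis) against mean log2 signal (horizontal axis) for the 7417 genes detected on all arrays, where Polr2g is highest at 0.39.

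The moderated F-test of limma set the spread between the samples against the difference of the repeat arrays of sample 1, that is, against array noise alone. It called 0 of 8363 genes (0.0%) at an adjusted p under 0.05, where the smallest adjusted p was 0.156, and 730 genes (8.73%) had an unadjusted p under 0.05. Median scaling in place of quantile normalization gave 94 calls and cyclic loess gave 33, so that the count of 0 depends on the normalization. Chosen after their values were seen, the 4 genes of widest range were the RNA polymerase II subunit Polr2g, which read 8.74, 8.88, 8.94 and 9.54, the transcript C730025P13Rik, at 7.41, 7.53, 7.76 and 8.12, the mitochondrial isocitrate dehydrogenase Idh2, at 8.41, 8.47, 8.73 and 9.07, and annexin A1 (Anxa1), at 8.34, 8.31, 7.91 and 8.53. In all 4 genes sample 3 was the highest. Calmodulin 2 (Calm2) read 9.58 and 10.02 on the repeat arrays of sample 1, a gap of 0.44 between arrays of the same sample. Of the detected fibroblast genes 6 of 13 (46.2%) had an unadjusted F-test p under 0.05, against 9.38% of all genes detected on all arrays. Among them were Ly6a, highest in sample 2 at 10.43 against 10.14, 10.13 and 10.09, and Thy1, highest in sample 3 at 10.10. Of the detected smooth muscle genes 1 of 13 (7.69%) had such a p, Smtn. No gene of either list passed after adjustment.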

How the data were processed

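The authors deposited 1 table of probe intensities that were not normalized, with a detection p-value for each probe on each array, from Illumina mouse version 2 BeadChips. The labels' processing notes name lumi, and the build behind the probes is not given in the sources used here. The authors deposited p-values that moved in 798 steps on each array. Quantile normalization was run on the 4 control arrays only (limma 3.58.1, R 4.3.3), log2 values were taken, 1A and 1B were averaged, and each gene was read at its brightest probe. The F-test over the 3 samples took its residual from 1A and 1B (1 degree of freedom, 8.078 prior degrees of freedom from eBayes), used probes detected on at least 1 control array, and adjusted p by Benjamini-Hochberg. It was tested on simulated data. The number of arrays limits the precision. Named genes were the marker genes, the 30 brightest genes, list members and the brightest members of each family. Members and lists were chosen with earlier results of these data known. Of 411 places on the lists, 26 had no probe under their symbols. Of 18138 symbols, 14307 are current RefSeq symbols, and 21 had been turned into dates. The mimetic arrays entered only alternatives that are named as using all 8 arrays or both repeated samples. A few list members counted here are not reported here by name.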

Additional observations from a re-analysis of the deposited data

How the results depend on the processing

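Detection counts kept within 1.5 times under every alternative run but 1, the count of endothelial markers by every probe. At detection cutoffs of 0.05 and 0.001, 8079 and 6760 genes were detected on all arrays, and leaving out each sample gave 7479 to 7592. Smooth muscle, endothelial and leukocyte markers detected on all arrays ran over 12 to 14, 4 to 5 and 2 to 3 genes at those cutoffs. Asking, after the data had been seen, that every probe of a gene be detected left 10 smooth muscle and 3 endothelial markers, since Flt1 and Egfl7 had other probes below the limit. The F-test called 94 genes after median scaling, 33 after cyclic loess, 8 without normalization and 2 with the residual from both repeated samples, and 0 under the other alternatives, and the cause was not tested. Without sample 1 no residual remained and the test was not run. The median SD between samples was 0.0424 to 0.103. The 30 brightest genes kept at least 29 under each alternative. Of 405 named signals, background correction from the detection p-values moved 340 by more than their SD, no normalization 46, quantile normalization of all 8 arrays 16, median scaling 10 and cyclic loess 3. No paired analysis was possible because no groups were compared. Signals within the background of the array set no order among dim genes.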
